A study of Mus musculus with 18 samples.

Results

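Testis RNA was compared between mice on a high-fat diet that also received FMT labelled control (HFD-conFMT) and mice on the high-fat diet alone (HFD). These 2 groups of 3 libraries are 6 of the 18 samples in the series, and 13105 genes were tested, those averaging 1 FPKM or more over the 18 libraries. FPKM counts sequenced fragments scaled to transcript length and library size. All 18 are whole testis of ICR mice, an outbred stock, at 10 weeks of age. FMT is the usual short form of faecal microbiota transplantation. The labels do not spell it out, and they give neither the donors nor the course of the transplant or the diet. The other groups used here are HFD-AOSFMT, the diet with FMT labelled AOS 10 mg/kg, and control, which received no diet or agent by its label. AOS at 10 mg/kg was given without the diet in the group AOS and with it in HFD-AOS. All 6 groups of 3 enter the filter and the shared estimate of the spread, so they bear on the SE and calls of the main comparison. HFD-conFMT and HFD share the diet, so the transplant procedure and its content differ between them together and cannot be told apart. The labels do not say that replicates are separate animals, and the spread behind the p-values may then be technical in part.

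The testis holds several cell populations. Spermatogonia divide and enter meiosis as spermatocytes, which give round spermatids and then elongating spermatids whose DNA is packed by transition proteins and protamines. Sertoli cells nurse the germ cells inside the tubules, and Leydig cells between the tubules make testosterone from cholesterol with macrophages beside them. Cholesterol is made from acetyl-CoA through mevalonate, squalene and lanosterol. The genes of this path, like those of fatty acid synthesis and desaturation, are targets of the SREBP transcription factors, which are held back when sterol is plentiful. Germ cells also carry many polyunsaturated fatty acids in their membranes. In bulk tissue, fewer cells of a type and less RNA per cell cannot be told apart.

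The HFD-conFMT libraries were slightly larger than the HFD libraries, without overlap in sum or relative depth. They summed to 620856 to 632609 FPKM in HFD-conFMT and 588565 to 620244 FPKM in HFD, and 13055 to 13149 genes reached 1 FPKM in HFD-conFMT and 13023 to 13126 in HFD. Relative depth, estimated from the steps between low values, was 1.006 to 1.013 of the average library in HFD-conFMT and 0.955 to 0.998 in HFD, while the absolute depth is unknown. The part of these differences in the results was not tested beyond rescaling the libraries. Median-ratio scaling (factors of 0.983 to 1.022) and quantile normalization each gave 0 genes with an adjusted p under 0.05. Of the lists described below, quantile normalization gave medians of 0.13 for ribosomal protein, 0.11 for oxidative phosphorylation and -0.17 for sterol genes. Without it they were 0.17, 0.14 and -0.15. Germ cell genes dominated in each of the 6, and 1 transcript, protamine 1 (Prm1), lay between 10536 and 17539 FPKM. HFD 2 and HFD-conFMT 2 stood apart. Transition protein and protamine transcripts made up 8.41 to 8.98% of the HFD-conFMT libraries, 8.17 and 8.46% of HFD 1 and HFD 3 and 6.54% of HFD 2, which also had the smallest sum. HFD-conFMT 2 held epididymal transcripts, as did HFD-conFMT 3 to a lesser degree and, outside the 2 groups, control 3. Between libraries of HFD-conFMT the median absolute log2 difference over genes was 0.0785 to 0.0827, between those of HFD it was 0.0852 to 0.110, and across the groups it was 0.0893 to 0.128.

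No gene passed the test between HFD-conFMT and HFD. Differences were small: limma called 0 of 13105 genes (0%) at an adjusted p under 0.05, the lowest adjusted p was 0.0651, and 8 genes (0.061%) had one under 0.1. An unadjusted p under 0.05 was reached by 1607 genes (12.3%), 918 higher (7%) and 689 lower (5.26%) in HFD-conFMT. The 3 and 3 values did not overlap for 2644 genes (20.2%), with all 3 HFD-conFMT values above for 1356 (10.3%) and below for 1288 (9.83%). The median log2 fold change over all genes was -0.0020, and 6450 genes (49.2%) were higher. Fold changes throughout are HFD-conFMT over HFD in log2(FPKM + 1), so those of low genes are understated. Array weights gave 9 calls, and leaving out HFD-AOS 1, a library outside both groups that enters only the estimate of the spread, gave 17.

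The genes of smallest p above HFD were of varied function. Capg, an actin-capping protein that is abundant in macrophages, had 2.10, 2.47 and 2.03 FPKM in HFD-conFMT, against 0.88, 1.18 and 0.53 FPKM in HFD (log2 fold change 0.79, SE 0.12, limma adjusted p = 0.0651). Rps19bp1, which binds ribosomal protein S19, had 10.9, 13.3 and 12.8 FPKM in HFD-conFMT and 8.05, 8.87 and 9.32 FPKM in HFD (log2 fold change 0.45). Rpl13, a protein of the large ribosomal subunit, had 469, 488 and 503 FPKM in HFD-conFMT and 423, 382 and 403 FPKM in HFD (log2 fold change 0.27). In each of these genes all HFD-conFMT libraries lay above all HFD libraries, as the naming rule requires. Dnajb1, a co-chaperone of Hsp70, was the tightest of them, at 119, 115 and 117 FPKM in HFD-conFMT against 104, 103 and 105 FPKM in HFD (log2 fold change 0.17). Hagh, which completes the breakdown of methylglyoxal, had 162, 164 and 162 FPKM in HFD-conFMT and 143, 135 and 146 FPKM in HFD (log2 fold change 0.20, adjusted p = 0.0975). Taf10, a subunit of the general transcription factor TFIID, had 134.0, 133.5 and 137 FPKM in HFD-conFMT and 117, 103 and 113 FPKM in HFD (log2 fold change 0.28). Capg and Rps19bp1 had the largest fold changes of these 6 genes. The other 6 genes named on this side, LOC108168657, Dgcr6, Myl6, Ap2s1, Tceal1 and Spcs1, had log2 fold changes of 0.18 to 0.52 and adjusted p of 0.0651 to 0.104. They include the myosin light chain Myl6, Ap2s1 of the clathrin adaptor AP-2 and Spcs1 of the signal peptidase.

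Genes below HFD included a germ cell Argonaute, the large subunit of RNA polymerase II, a kallikrein and 2 sterol enzymes. Piwil1 (Miwi), which binds piRNAs in spermatocytes and round spermatids, had 99.7, 101.3 and 104 FPKM in HFD-conFMT, against 117, 120.9 and 114 FPKM in HFD (log2 fold change -0.20, SE 0.041, adjusted p = 0.104). Polr2a, the largest subunit of RNA polymerase II, had 24.1, 24.0 and 24.6 FPKM in HFD-conFMT and 27.2, 29.8 and 28.9 FPKM in HFD (log2 fold change -0.23, adjusted p = 0.122). Most other subunits of the polymerase lay on the other side. Of 12 subunits, a family added after the values were seen, 9 were higher in HFD-conFMT, against 49.2% of all genes. The 3 lower ones were Polr2a, Polr2b and Polr2k. Only 2 of the 12 lay above HFD without overlap, against 10.3% of all genes. The median was 0.10, and 0.05 when adjusted for length and GC content. Camsap2, which binds the minus ends of microtubules, had 13.6, 13.5 and 13.4 FPKM in HFD-conFMT and 15.8, 15.7 and 15.7 FPKM in HFD (log2 fold change -0.21, adjusted p = 0.166). Nsun4, an RNA methyltransferase of mitochondria, had 126, 131 and 129.7 FPKM in HFD-conFMT and 151, 153 and 152 FPKM in HFD (log2 fold change -0.24, adjusted p = 0.166). For both genes the gap between the groups was several times the range within either group. The nuclear pore protein Tpr, the importin Kpna3, the translational repressor Gigyf2, the transcription factor Zhx1 and the transporter Abcc12 had log2 fold changes of -0.15 to -0.24, with adjusted p of 0.154 to 0.166.

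**Figure D1:**
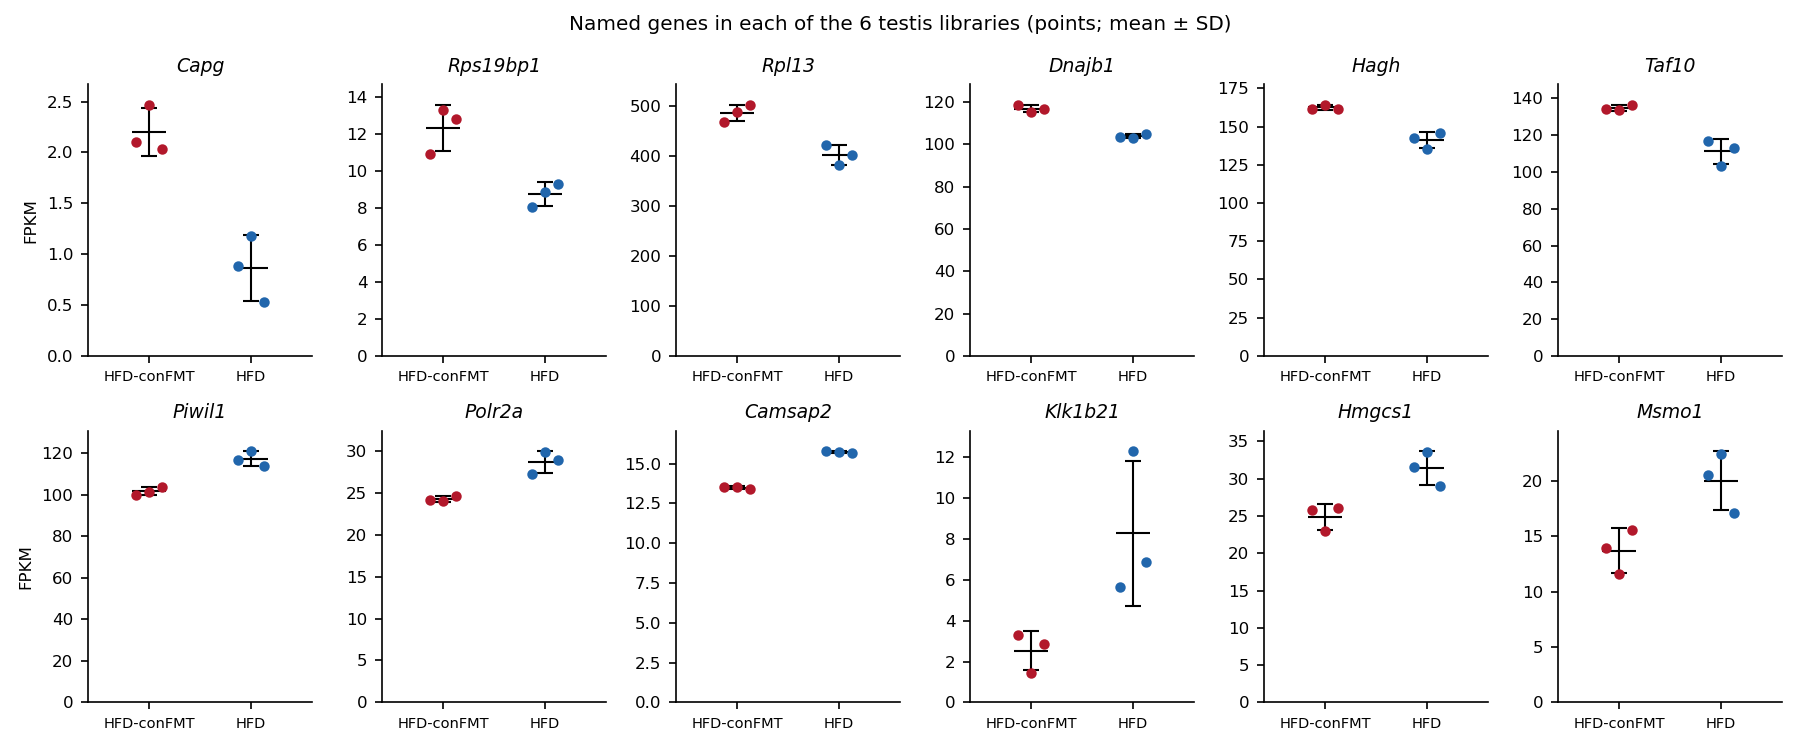
FPKM of 12 of the named genes in the 3 HFD-conFMT (red) and 3 HFD (blue) libraries, as points with the group mean and SD, on axes that start at 0. The top row holds genes above HFD and the bottom row genes below it, and the groups do not overlap in any panel, because the naming rule asked for that.

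Klk1b21 had the largest fold change among these genes. Klk1b genes are a cluster of tissue kallikreins, serine proteases, on mouse chromosome 7. Klk1b21, from 44102328 to 44106583 (mm10), had 3.28, 1.44 and 2.86 FPKM in HFD-conFMT, against 5.64, 12.3 and 6.88 FPKM in HFD (log2 fold change -1.37, SE 0.29, adjusted p = 0.122). HFD 2 was the highest of the 6. Klk1b24 had 5.81, 3.46 and 3.17 FPKM in HFD-conFMT and 6.62, 13.2 and 6.93 FPKM in HFD, and Klk1b22, too low to be tested, was listed at 0 in the 3 HFD-conFMT libraries, against 0.83, 1.75 and 0.55 FPKM in HFD. Members differed in direction. Of 13 Klk1b genes in the deposited data, 9 were tested, 7 lower and 2 higher in HFD-conFMT, and the most abundant, Klk1b8, lay above HFD (99.7, 101.9 and 99.9 FPKM in HFD-conFMT against 89.5, 94.8 and 91.5 FPKM in HFD). All 6 libraries lay below the 3 control libraries for Klk1b21, which averaged 21.3 FPKM in control, and its test of HFD-conFMT against control passed (log2 fold change -2.68, adjusted p = 0.00155). Of the 50-base stretches of the Klk1b21 transcript 28.5% also occur in another Klk1b transcript, most often in Klk1b24, so the split of reads between these copies is uncertain.

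Sterol synthesis genes were lower in HFD-conFMT by a small amount. Of 24 tested members 21 were lower and 3 higher (12.5% higher, against 49.2% of all genes). All 3 HFD-conFMT values lay below HFD for 10 (41.7%, against 9.83% of all genes) and above for 0. An unadjusted limma p under 0.05 was reached by 6, all lower (25%, against 5.26% of all genes). The median log2 fold change was -0.15 (-0.08 with a pseudocount of 5), and 0 members passed the adjusted test. Hmgcs1, the cytosolic synthase that makes HMG-CoA, had 25.8, 22.9 and 26.1 FPKM in HFD-conFMT, against 31.6, 33.6 and 29.0 FPKM in HFD (log2 fold change -0.32, SE 0.069, adjusted p = 0.124). Msmo1, which removes methyl groups from lanosterol products, had 13.9, 11.6 and 15.6 FPKM in HFD-conFMT and 20.5, 22.4 and 17.2 FPKM in HFD (log2 fold change -0.52, SE 0.13, adjusted p = 0.166). In both genes every HFD-conFMT library lay below every HFD library.

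The order along the pathway can be read from its other members. Of the early enzymes, the mevalonate kinases Mvk (0.09, SE 0.097) and Pmvk (0.17, SE 0.12) and the squalene synthase Fdft1 (0.02, SE 0.029) were the 3 members with positive log2 fold changes. Idi1, the isomerase, ran from 8.91 to 13.8 FPKM in HFD-conFMT and from 11.9 to 21.5 FPKM in HFD, with overlap. Among late enzymes, Sc5d, the sterol desaturase, had 5.44, 6.03 and 6.07 FPKM in HFD-conFMT and 7.83, 7.02 and 7.25 FPKM in HFD (log2 fold change -0.29, SE 0.14). Lss, which makes lanosterol, and Tm7sf2, Nsdhl and Hsd17b7, which act on its products, also had all HFD-conFMT values below HFD, with log2 fold changes of -0.17 to -0.25. Stard4, a sterol carrier, and Mvd, which acts before squalene, did not overlap either. The regulator Srebf2 itself had 6.41, 6.76 and 7.73 FPKM in HFD-conFMT and 7.74, 6.74 and 6.57 FPKM in HFD (log2 fold change -0.01).

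The promoters of 2 of the lower sterol genes are printed because genes of this pathway are known to share promoter elements. They are the 2 of smallest p with a RefSeq window that overlaps no annotated exon. Each run is the 250 bases before the start, 5′ to 3′ on the gene's strand, from RefSeq (GRCm38.p6). Capitals mark TCACNCCAC, a form of the sterol element, and CCAAT or its complement ATTGG, the box bound by NF-Y, searched on both strands. The Hmgcs1 window is chr13:119690101-119690350 (+ strand) and the Sc5d window is chr9:42264301-42264550 (- strand).
Hmgcs1: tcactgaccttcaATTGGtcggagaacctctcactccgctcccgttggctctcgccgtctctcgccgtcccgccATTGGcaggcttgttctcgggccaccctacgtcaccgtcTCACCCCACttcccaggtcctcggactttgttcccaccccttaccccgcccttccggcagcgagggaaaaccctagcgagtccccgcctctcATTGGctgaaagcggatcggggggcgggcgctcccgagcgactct
Sc5d: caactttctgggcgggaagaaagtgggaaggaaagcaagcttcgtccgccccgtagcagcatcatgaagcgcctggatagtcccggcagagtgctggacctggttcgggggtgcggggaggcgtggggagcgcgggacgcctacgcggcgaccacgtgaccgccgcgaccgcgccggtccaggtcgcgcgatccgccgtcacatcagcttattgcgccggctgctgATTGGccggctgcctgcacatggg
The Hmgcs1 window held 3 CCAAT boxes on the opposite strand and 1 TCACNCCAC match from 137 to 129 bases before the start, and the Sc5d window held 1 CCAAT box from 24 to 20 bases before it. Of the 17 sterol members with a window, 15 (88.2%) held CCAAT on either strand, against 36.9% of 10305 tested genes with one and 34.5% of all 27025 windows. TCACNCCAC was found in 1 of the 17 and in 1.04% of all windows. For sterol members the window nearest the annotated gene start was used, and for the other shares the first window listed per gene. The shares are therefore not strictly like for like. A match is a description of these letters and not a bound site.

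Fatty acid synthesis genes went the same way to a smaller extent, led by the desaturases of polyunsaturated fatty acids. Fads2, the first desaturase of that path, had 68.4, 53.8 and 71.9 FPKM in HFD-conFMT, against 87.8, 79.1 and 91.9 FPKM in HFD (log2 fold change -0.42, SE 0.11, adjusted p = 0.191). Fads1, its partner, had 23.5, 19.7 and 24.4 FPKM in HFD-conFMT and 27.1, 27.9 and 33.2 FPKM in HFD (log2 fold change -0.37, SE 0.13, adjusted p = 0.287). HFD-conFMT 2 was the lowest of the 6 libraries in both genes. Acly, which makes cytosolic acetyl-CoA, Acaca, which makes malonyl-CoA, the synthase Fasn and the elongase Elovl2 also had all HFD-conFMT values below HFD, with log2 fold changes of -0.07 to -0.18. Over the list 16 of 22 tested members were lower, 6 of them without overlap (27.3%, against 9.83% of all genes) and 0 without overlap above, and 0 passed the adjusted test. The median log2 fold change was -0.07, which became -0.04 without HFD 2 and -0.05 with a pseudocount of 5. The stearoyl-CoA desaturase Scd2 (-0.12, SE 0.087) and the regulator Srebf1 (-0.09, SE 0.11) overlapped between the groups.

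**Figure D2:**
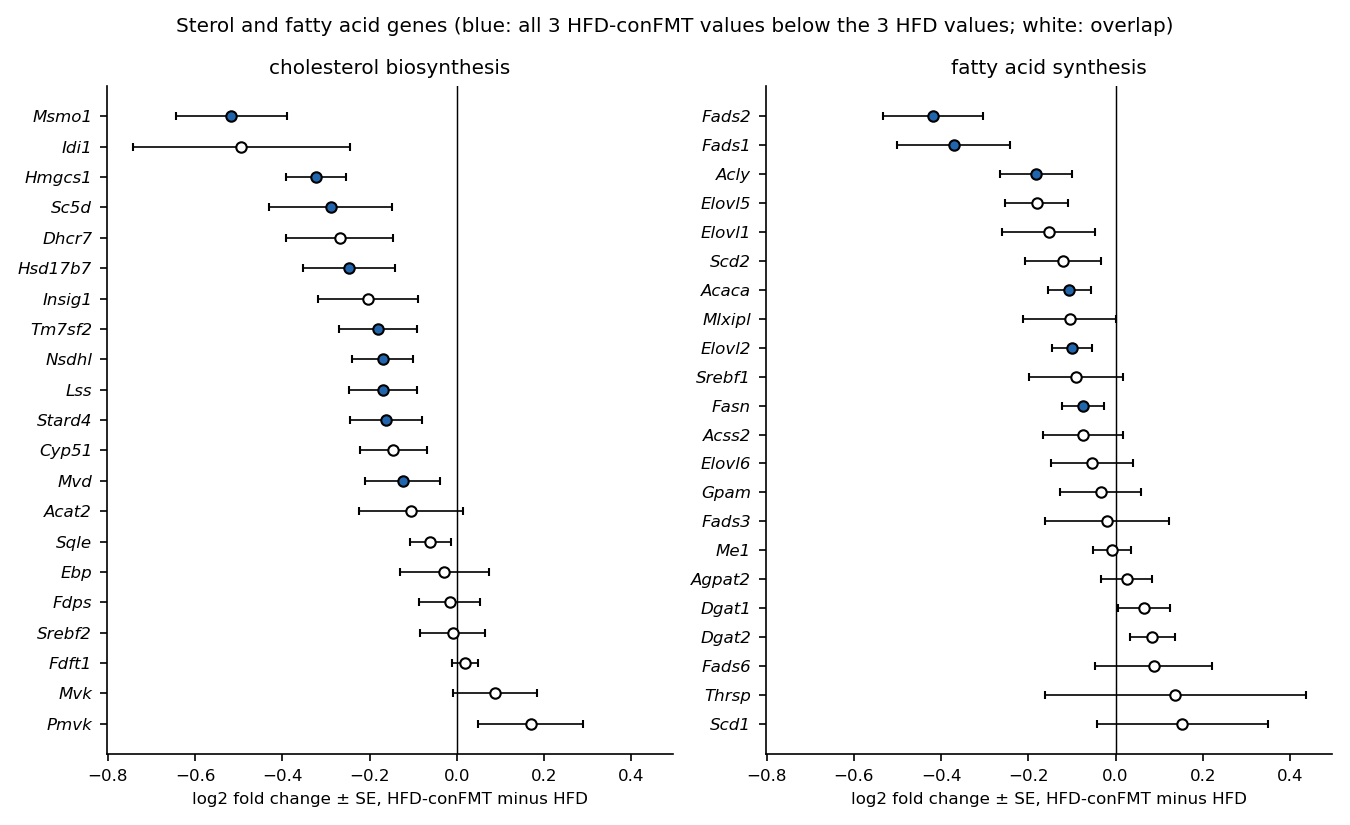
Log2 fold change of HFD-conFMT over HFD with its SE for 21 of the tested sterol genes (left) and fatty acid synthesis genes (right), 1 gene per row. Blue points are genes with all 3 HFD-conFMT values below HFD, 9 of the 21 and 6 of 22, and white points are genes whose values overlap.

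Against control the same sterol and desaturase genes were further down, in a comparison that shares the HFD-conFMT libraries and is therefore no second measurement of them. HFD-conFMT against control gave 274 calls (2.09% of genes), 163 higher (1.24%) and 111 lower (0.847%). Hmgcs1 (log2 fold change -0.41, adjusted p = 0.0158), Msmo1 (-0.69, adjusted p = 0.0216), Lss (-0.32, adjusted p = 0.0461), Fads2 (-0.59, adjusted p = 0.0235), Fads1 (-0.71, adjusted p = 0.0202) and Elovl5 (-0.29, adjusted p = 0.0486) passed there and fell. These calls rest on few libraries, and HFD-conFMT 2 and control 3 both carry epididymal transcripts. There were 6 calls in all without HFD-conFMT 2, 14 without HFD-conFMT 3, 16 without control 3, 19 without control 2 and 4 without both HFD-conFMT 2 and control 3. Of the 24 genes named above and below HFD, 7 of 12 and 10 of 12 were called against control. The direct test between the transplants called 0 of the 24 (smallest unadjusted p = 0.00807). It called 1 gene in all (0.00763%), Kap, a kidney androgen-regulated gene, at 37.7, 31.5 and 36.3 FPKM in HFD-AOSFMT, listed at 0 in the 3 HFD-conFMT libraries and at 0, 0 and 0.15 FPKM in HFD. The HFD-AOSFMT mean lay between the HFD-conFMT and HFD means for 9 of the 12 genes above HFD and 11 of the 12 below. These genes were chosen for a gap between HFD-conFMT and HFD, which by itself favours another group's mean falling between them. The share over all genes was not tested, so these counts cannot show whether HFD-AOSFMT is intermediate.

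Ribosomal protein genes were higher in HFD-conFMT almost throughout. Of 84 tested members 78 were higher and 6 lower, 56 had all 3 HFD-conFMT values above HFD (66.7%, against 10.3% of all genes) and 0 had all 3 below, with a median log2 fold change of 0.17. Summed, they made 25210 to 26220 FPKM in HFD-conFMT and 22090 to 23930 FPKM in HFD. The small subunit had 31 of 32 members higher and the large subunit 45 of 50. Rps13 had 315, 327 and 322 FPKM in HFD-conFMT and 282, 275 and 257 FPKM in HFD (log2 fold change 0.24, SE 0.049, adjusted p = 0.107). Rpl4 was among the exceptions, at 226, 256 and 264 FPKM in HFD-conFMT and 260.2, 268 and 268 FPKM in HFD. The adjusted test passed for 0 members. These genes have many near-identical copies in the genome, so the share of their reads assigned to each is uncertain.

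Nuclear genes of oxidative phosphorylation, the respiratory chain and ATP synthase, showed the same direction. Of 81 tested members 77 were higher, 37 without overlap (45.7%, against 10.3% of all genes) and 0 without overlap below, with a median log2 fold change of 0.14, and 0 passed the adjusted test. Complex I had 35 of 36 members higher (median 0.17), complex II 3 of 4 (0.05), complex III 8 of 9 (0.15), complex IV 14 of 14 (0.15) and the ATP synthase 16 of 17 (0.11). Sdhd, an anchor of complex II and the highest of its 4 members, had 23.1, 24.8 and 23.4 FPKM in HFD-conFMT, against 19.6, 20.5 and 19.8 FPKM in HFD (log2 fold change 0.24, SE 0.060, adjusted p = 0.171). Uqcrc1, a core protein of complex III, had 183, 182 and 184 FPKM in HFD-conFMT and 173, 162 and 169 FPKM in HFD (log2 fold change 0.12, adjusted p = 0.190). Mitochondrial ribosomal proteins, a family added after the values were seen, were higher for 60 of 75 members, against 49.2% of all genes. Their median log2 fold change was 0.12. It was 0.08 when adjusted for length and GC content and 0.09 without HFD 2. Mrpl54 had 180.1, 187 and 194 FPKM in HFD-conFMT and 159.8, 147 and 144 FPKM in HFD (log2 fold change 0.31, adjusted p = 0.104).

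Transcript length, taken as the median over all annotated transcripts of a gene, moved with these groups. A gene with a long transcript can thus fall in a short class where its other transcripts are short. The classes and the adjustment for length and GC content are approximate for that reason. Ribosomal protein transcripts have a median length of 630 bases and oxidative phosphorylation transcripts one of 581 bases, and over all 12851 genes with a length, short genes tended to be higher in HFD-conFMT (Spearman rho -0.217 with length and 0.290 with GC content, across genes of the same 6 libraries). Of genes of up to 500 bases 21.1% had all 3 HFD-conFMT values above HFD and 4.39% below, while of genes over 6000 bases 3.52% lay above and 17.6% below. Up to 500 bases, 13 of 13 ribosomal protein genes (median 0.29) and 20 of 20 oxidative phosphorylation genes (0.17) were higher, against 70.8% of all genes in that class (0.07). Between 500 and 1000 bases, where 67 and 53 of their members fall, 61 of 67 (0.16) and 49 of 53 (0.12) were higher, against 57.7% of all genes there (0.02). The median of genes up to 1000 bases minus that of genes over 4000 bases was 0.0209, 0.0524 and 0.0618 in HFD-conFMT and 0.0092, -0.0661 and -0.0226 in HFD, so HFD 2 was the lowest of these 6. With a per-library smooth on length and GC removed, the median was 0.13 for ribosomal proteins (76 of 84 higher), 0.09 for oxidative phosphorylation (65 of 81 higher) and -0.16 for sterol genes (21 of 24 lower). Without HFD 2 they were 0.15, 0.11 and -0.11, with 80, 76 and 6 members higher.

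**Figure D3:**
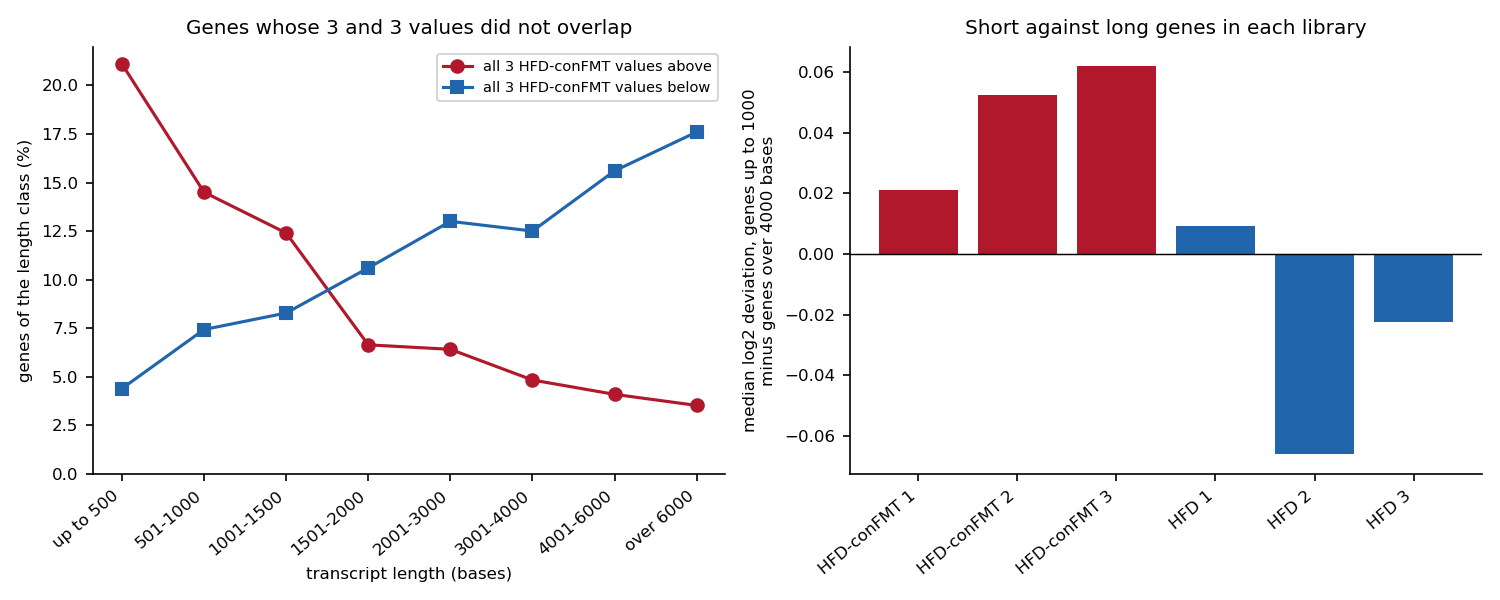
Left, the percentage of genes in each class of transcript length with all 3 HFD-conFMT values above (red) or below (blue) HFD, which is 21.1% and 4.39% in the shortest class and 3.52% and 17.6% in the longest. Right, for each HFD-conFMT and HFD library, the median log2 deviation from the mean over the 18 libraries of genes up to 1000 bases minus that of genes over 4000 bases. It is highest in HFD-conFMT 3 at 0.0618 and lowest in HFD 2 at -0.0661. Control 2, which is not drawn, was lower still at -0.0786. Length is the median over a gene's annotated transcripts.

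Most macrophage and leukocyte markers were higher in HFD-conFMT by a small amount. Of 15 tested markers of macrophages and leukocytes, out of 20 listed, 14 were higher and 6 had all HFD-conFMT values above HFD (40%, against 10.3% of all genes), with a median log2 fold change of 0.19 and 0 adjusted calls. Tyrobp, an adaptor of myeloid receptors, had 4.91, 5.58 and 5.70 FPKM in HFD-conFMT and 2.59, 3.39 and 3.20 FPKM in HFD (log2 fold change 0.66, SE 0.16, adjusted p = 0.171). Lyz2, lysozyme, had 19.7, 25.3 and 22.3 FPKM in HFD-conFMT and 14.8, 15.4 and 14.1 FPKM in HFD (log2 fold change 0.57, SE 0.14, adjusted p = 0.171). The 3 chains of complement C1q were all higher: C1qc, the one of smallest p, had 7.42, 8.38 and 7.53 FPKM in HFD-conFMT and 5.60, 5.61 and 6.03 FPKM in HFD (log2 fold change 0.38), and C1qa (0.23) and C1qb (0.29) did not overlap either. H2-Aa, a class II antigen-presenting chain, was the sixth. Receptors that define macrophages gave no such gap: Csf1r had 2.13, 1.85 and 2.46 FPKM in HFD-conFMT and 2.14, 2.72 and 1.75 FPKM in HFD, and Adgre1 (F4/80), Mrc1 and the lysosomal protein Cd68 (3.54, 4.55 and 3.73 FPKM in HFD-conFMT, 3.30, 3.55 and 3.12 FPKM in HFD) overlapped as well. The lymphocyte markers Cd3e and Cd79a were at or under 0.21 FPKM in all 6 libraries. Without HFD 2 the median was 0.22, with 15 of 15 higher, and without HFD-conFMT 1 it was 0.36. The 4 tested blood genes, of 10 listed, were higher too, 2 of them without overlap (50%, against 10.3% of all genes). Their median log2 fold change was 0.35. Their mean log2 deviation from the 18 libraries overlapped, at 0.23 to 0.47 in HFD-conFMT and -0.68 to 0.31 in HFD. The SD of that deviation between replicates, pooled over the 6 groups, was 0.35. Hba-a1, an alpha globin, had 79.3, 89.4 and 90.1 FPKM in HFD-conFMT and 79.1, 71.2 and 36.0 FPKM in HFD (log2 fold change 0.54, SE 0.29, adjusted p = 0.466), and HFD 3 was the lowest. The part of blood in the macrophage values was not tested.

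Some adipocyte markers were higher in HFD-conFMT by larger factors, while others were level. Of 8 tested markers, out of 15 listed, 6 were higher and 2 lower, 3 had all HFD-conFMT values above HFD (37.5%, against 10.3% of all genes), and 0 passed the adjusted test. The median log2 fold change was 0.30. It was 0.01 among members averaging at least 5 FPKM, 0.17 without HFD 1, 0.49 without HFD 3 and 0.18 without HFD-conFMT 3. The mean log2 deviation of the tested markers from the 18 libraries was 0.43 to 0.49 in HFD-conFMT and -0.57 to 0.09 in HFD. The SD of that deviation between replicates, pooled over the 6 groups, was 0.36. Fabp4, the fatty acid binding protein of fat cells, which capillaries and macrophages also express, had 19.8, 27.4 and 19.1 FPKM in HFD-conFMT, against 3.45, 7.53 and 7.92 FPKM in HFD (log2 fold change 1.71, SE 0.57, adjusted p = 0.270). Car3, a carbonic anhydrase of fat and muscle, had 13.3, 11.2 and 11.8 FPKM in HFD-conFMT and 1.09, 3.27 and 5.48 FPKM in HFD (log2 fold change 1.76, SE 0.59, adjusted p = 0.270). Cfd, adipsin, was the third without overlap (log2 fold change 1.25, SE 0.61). Counting markers below the filter, 7 of 15 had all HFD-conFMT values above HFD and 0 below, against 7.77% and 7.30% of all 20979 genes. The untested ones among them include Cidec, a lipid droplet protein, at 1.04, 1.25 and 1.32 FPKM in HFD-conFMT and 0.20, 0.21 and 0.32 FPKM in HFD, Lpl, lipoprotein lipase, at 1.49, 1.54 and 1.64 FPKM in HFD-conFMT and 0.38, 0.60 and 0.93 FPKM in HFD, and leptin (Lep), at 0.38 to 0.51 FPKM in HFD-conFMT and 0.08 to 0.19 FPKM in HFD. Adiponectin (Adipoq) overlapped, at 12.2, 11.4 and 12.8 FPKM in HFD-conFMT and 12.4, 14.9 and 9.72 FPKM in HFD, and so did Cidea (log2 fold change -0.004), Pparg (0.02), Lipe (0.01) and Retn (0.58, SE 0.41). The 15 markers summed to 189.5 to 200.2 FPKM in HFD-conFMT and 160.0 to 167 FPKM in HFD, of which Lipe, also a germ cell gene, made the larger part. The part of fat tissue left on the testis in these values was not tested.

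**Figure D4:**
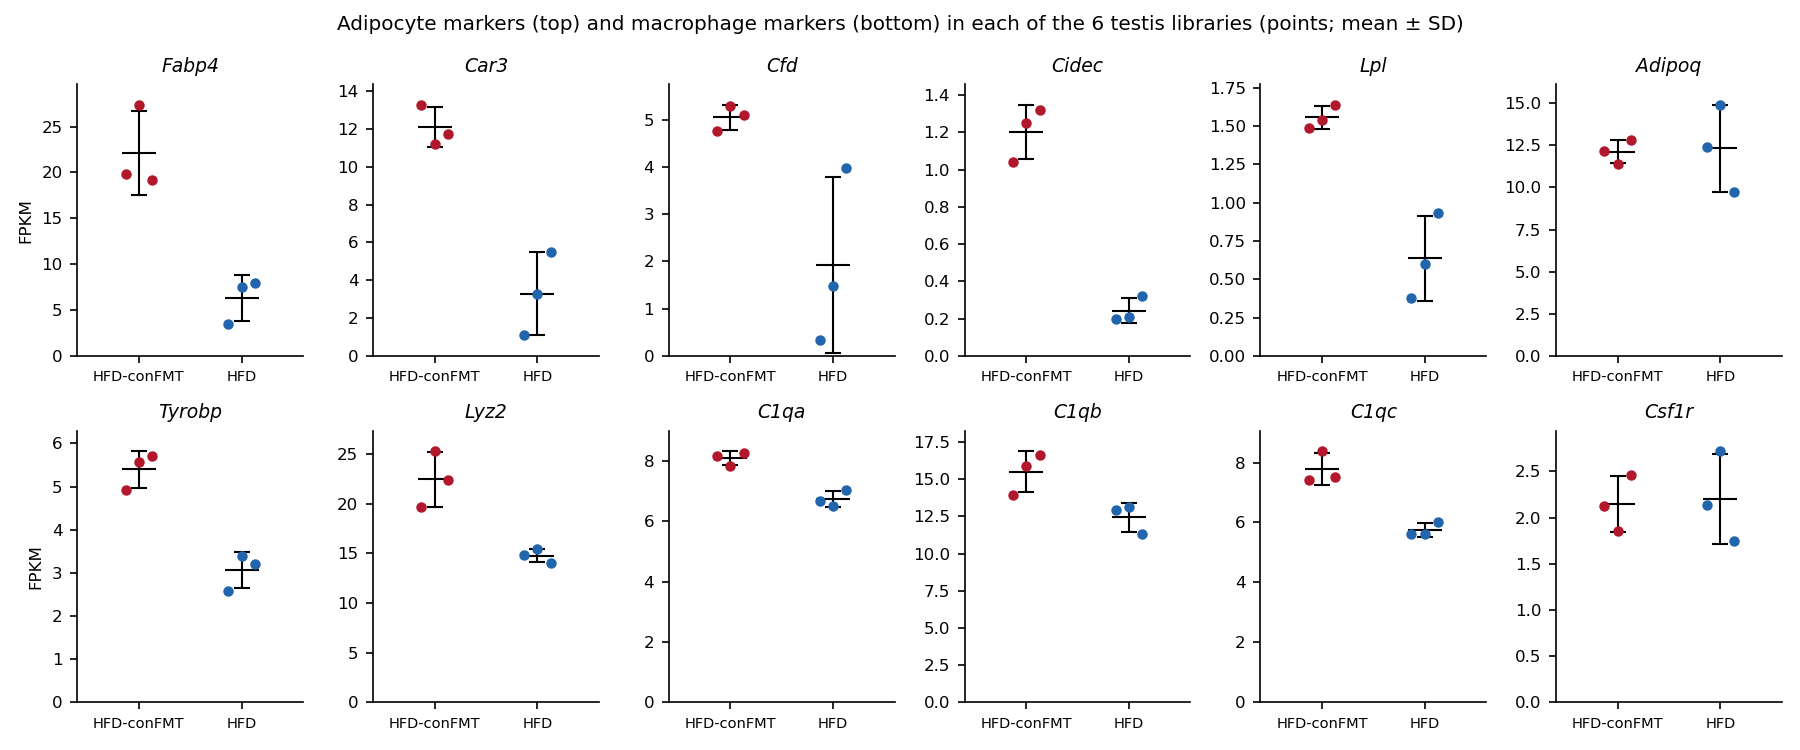
FPKM of 6 adipocyte markers (top) and 6 macrophage markers (bottom) in the 3 HFD-conFMT (red) and 3 HFD (blue) libraries, as points with the group mean and SD, on axes that start at 0. Fabp4, Car3, Cfd, Cidec and Lpl lie above HFD in all HFD-conFMT libraries and Adipoq overlaps, while below them Csf1r overlaps and the other 5 do not.

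Epididymal transcripts were highest in HFD-conFMT 2 among these 6 libraries, and HFD-conFMT 3 held some as well. Crisp1, a secretory protein of the epididymis, had 0.59, 104 and 8.60 FPKM in HFD-conFMT 1 to 3, against 0.40, 0.21 and 0.20 FPKM in HFD (log2 fold change 3.21, SE 1.41, adjusted p = 0.381). Defb22, an epididymal defensin, had 0.14, 22.4 and 1.52 FPKM in HFD-conFMT and was at 0.15 FPKM or 0 in HFD. Defb28, another defensin, was at 0, 18.9 and 1.98 FPKM in HFD-conFMT and listed at 0 in the 3 HFD libraries. The mean log2 deviation of the tested markers from the 18 libraries was -0.23, 1.63 and 0.42 in HFD-conFMT and -0.25, -0.24 and -0.30 in HFD. Outside the 2 groups, control 3 stood higher still, with 159 FPKM of Crisp1, a mean deviation of 1.74 and the highest value of the 18 libraries for 13 markers. HFD-conFMT 2 was the highest of the 6 libraries for 19 of 40 epididymal markers, and 17 of them reached 1 FPKM there, against 8 and 14 in the other HFD-conFMT libraries and 9 to 11 in HFD. The markers Lcn8, Lcn10, Defb12 and Ly6g5c were at 0 in all 6 libraries. Of 14 tested markers 13 were higher in HFD-conFMT (median log2 fold change 0.24), and 13 also without HFD-conFMT 2 (0.18). Some of them, such as Crisp1 and Defb28, passed the filter only through the libraries where they are high. The count, the median and the mean deviation are therefore tilted towards those libraries. With no filter on low values the median was 0.08. Leaving out HFD-conFMT 2 left 0 calls in the main comparison, and the medians of ribosomal proteins, sterol genes and macrophage markers were then 0.16, -0.13 and 0.25.

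Leydig cell genes went in both directions. Of 20 tested members 13 were higher and 7 lower, with a median log2 fold change of 0.03, 0 adjusted calls, 2 members without overlap above HFD (10%, against 10.3% of all genes) and 1 below (5%, against 9.83%), shares no higher than over all genes. The median was -0.004 without HFD-conFMT 2 and -0.03 without HFD 3. Star, which brings cholesterol into the mitochondrion as the first step of steroid synthesis, had 34.4, 39.6 and 41.7 FPKM in HFD-conFMT, against 42.6, 53.3 and 46.8 FPKM in HFD (log2 fold change -0.30, SE 0.16, adjusted p = 0.476). Hsd3b1, which acts later in the path, went the other way, at 106, 125 and 129 FPKM in HFD-conFMT and 91.9, 99.9 and 79.2 FPKM in HFD (log2 fold change 0.40, SE 0.18, adjusted p = 0.389). Cyp11a1, which cleaves the cholesterol side chain, Cyp17a1, Hsd17b3 and Insl3, the peptide hormone of Leydig cells, overlapped between the groups. Vcam1 had 22.3, 31.7 and 30.4 FPKM in HFD-conFMT and 18.9, 22.6 and 19.8 FPKM in HFD.

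Among germ cells, more meiotic genes were lower than higher. The medians of spermatid genes were close to level, with more members above HFD than below among those without overlap. Of 22 tested spermatocyte markers 14 were lower, 6 of them without overlap (27.3%, against 9.83% of all genes), and 3 were above without overlap (13.6%, against 10.3%). The median log2 fold change was -0.05, which became -0.01 with the length and GC adjustment, -0.03 without HFD 2 and -0.07 without HFD 1. Sycp2, of the synaptonemal complex that pairs chromosomes, had 74.3, 70.4 and 69.5 FPKM in HFD-conFMT and 77.9, 84.5 and 84.5 FPKM in HFD (log2 fold change -0.20, SE 0.052, adjusted p = 0.171). Its partner Sycp1 had 53.1, 62.2 and 52.9 FPKM in HFD-conFMT and 64.4, 76.9 and 66.0 FPKM in HFD (log2 fold change -0.30), while Syce3, a short protein of the same structure, was higher (152, 142 and 169 FPKM in HFD-conFMT against 136, 99.7 and 126 FPKM in HFD). Mybl1, the transcription factor that switches on pachytene piRNA genes, had 15.7, 14.8 and 14.3 FPKM in HFD-conFMT and 15.97, 17.7 and 17.1 FPKM in HFD (log2 fold change -0.16, adjusted p = 0.293). Of 23 tested piRNA pathway genes 13 were lower and 4, Piwil1, Piwil2, Mybl1 and Tdrd1, did not overlap below HFD (17.4%, against 9.83% of all genes), while 1 did not overlap above (4.35%, against 10.3%). The median of this list was -0.04, and it was -0.02 without HFD 2 and with the length and GC adjustment and -0.06 with quantile normalization.

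Elongating spermatid genes had a median log2 fold change of 0.02 over 27 members, which is -0.03 with quantile normalization. Of the 27, 4 lay above HFD without overlap (14.8%, against 10.3% of all genes) and 0 below (against 9.83%). Prm1 had 16742, 17539 and 15633 FPKM in HFD-conFMT, against 14772, 10536 and 15091 FPKM in HFD (log2 fold change 0.32, SE 0.11, adjusted p = 0.293), with the lowest value in HFD 2. Round spermatid genes had a median of 0.01 over 30 members, and -0.04 with quantile normalization. Of the 30, 6 lay above HFD without overlap (20%, against 10.3% of all genes) and 2 below (6.67%, against 9.83%). The kinases Tssk6 (log2 fold change 0.24, adjusted p = 0.236) and Tssk3 (0.11, adjusted p = 0.327) of late spermatids did not overlap above HFD. Spermatogonial markers had 0 of 12 members without overlap in either direction, against 20.2% of all genes.

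The remaining lists had small medians, and they are described by single genes and counts. Tjp1 (ZO-1), the scaffold of the blood-testis barrier, had 16.2, 15.3 and 15.5 FPKM in HFD-conFMT and 16.8, 18.9 and 17.9 FPKM in HFD (log2 fold change -0.18, SE 0.059, adjusted p = 0.271), and of 17 barrier genes only Tjp1 and Cgn did not overlap, both below HFD (11.8%, against 9.83% of all genes). Among cell cycle genes, the mitotic kinase Aurka had 92.7, 87.3 and 87.6 FPKM in HFD-conFMT and 71.6, 79.6 and 74.4 FPKM in HFD (log2 fold change 0.24, adjusted p = 0.166), while Mki67 lay below HFD (5.28, 4.88 and 4.86 FPKM in HFD-conFMT against 5.88, 6.15 and 6.32 FPKM in HFD). Among antioxidant genes, Gpx4, which protects membrane lipids and forms part of the sperm midpiece, had 1411, 1470 and 1494 FPKM in HFD-conFMT and 1335, 1147 and 1301 FPKM in HFD (log2 fold change 0.21, adjusted p = 0.227). Of the 28 tested members of that list 4 lay above HFD without overlap (14.3%, against 10.3% of all genes) and 0 below (against 9.83%). The list median was 0.04, and 0.002 with the length and GC adjustment. Ech1, of peroxisomal and mitochondrial fatty acid oxidation, had 51.9, 56.3 and 56.4 FPKM in HFD-conFMT and 47.5, 43.9 and 45.5 FPKM in HFD (log2 fold change 0.26, adjusted p = 0.166), though 16 of the 23 members of that list were higher and 7 lower with a median of 0.03. The proteasome gene Psmb8, an interferon target, had 1.58, 1.59 and 2.23 FPKM in HFD-conFMT and 0.95, 0.81 and 1.18 FPKM in HFD, in a list with 8 higher and 5 lower of 13. Of that list 3 lay below HFD without overlap (23.1%, against 9.83% of all genes) and 2 above (15.4%, against 10.3%). Of 12 tested genes of endotoxin sensing and inflammation 7 were higher and 5 lower. Without overlap, 2 lay above HFD (16.7%, against 10.3% of all genes) and 0 below (against 9.83%). The median of these 12 was 0.08, and 0.01 with the length and GC adjustment. Medians of the Sertoli cell, retinoid, apoptosis, circadian clock, heat shock, glycolysis, endothelium, peritubular smooth muscle, extracellular matrix and immediate early lists ran from -0.05 for the circadian clock to 0.05 for peritubular smooth muscle. Of these, endothelium had 10 of 12 members higher, 2 without overlap (16.7%, against 10.3% of all genes). Peritubular smooth muscle had 8 of 11 higher, with 0 above and 1 below without overlap (9.09% below, against 9.83%). The circadian clock had 10 of 15 lower, 2 without overlap (13.3%, against 9.83%). Extracellular matrix had 15 of 27 higher, with 3 above (11.1%, against 10.3%) and 5 below (18.5%, against 9.83%) without overlap. Glycolysis had 18 of 26 higher, against 11 of 26 with the length and GC adjustment and 12 of 26 with quantile normalization.

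**Figure D5:**
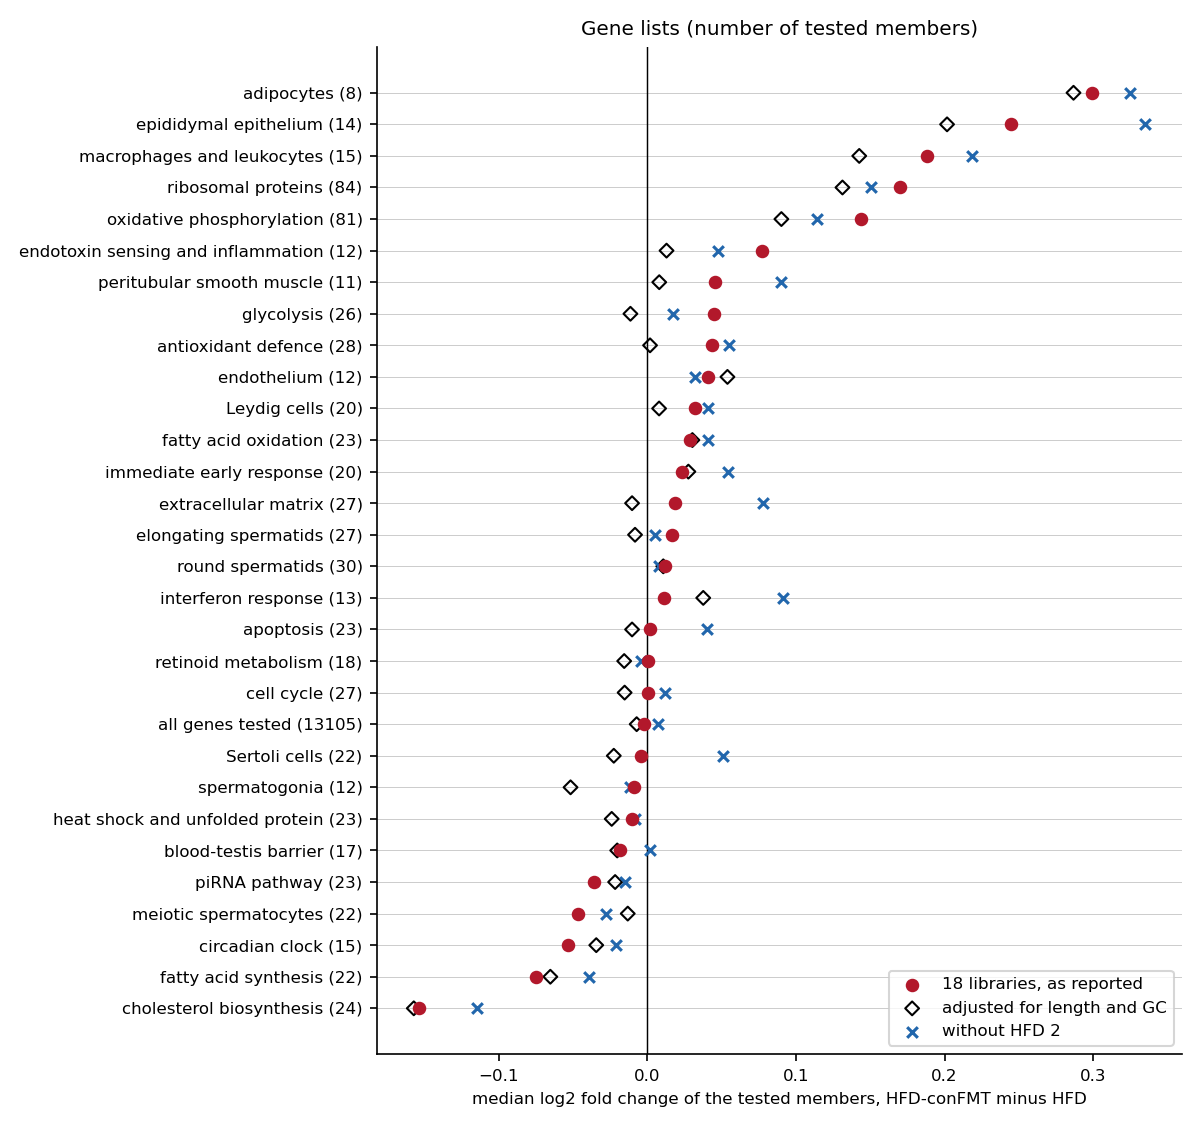
Median log2 fold change of HFD-conFMT over HFD for each gene list with at least 5 tested members (number in brackets), and over all genes tested. Red points use the 18 libraries, open diamonds the values adjusted for length and GC content, and blue crosses the fit without HFD 2. Cholesterol biosynthesis lies lowest at -0.15 and adipocyte, epididymal, macrophage, ribosomal protein and oxidative phosphorylation genes lie highest.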

How the data were processed

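Per the labels' protocols, Trizol and a column kit were used on frozen testis, and 1 ug of total RNA per sample went into a standard Illumina library. The submitters' processing notes name Bowtie 0.12.2, a read aligner, and the mm10 build, with the counting tool, annotation and strand setting not given in the sources used here. A single file was deposited by the authors, a table of 20985 rows, whose values were read as FPKM to 2 decimals since its header names no unit. Left out were 6 rows of 3 repeated symbols. Another 24 symbols are written as dates and name no gene.

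Genes averaging 1 or more over the 18 libraries were kept and modelled as log2(FPKM + 1). A single limma model of 6 group means with a mean-variance trend (limma 3.58.1, R 4.3.3, residual degrees of freedom 12) gave each log2 fold change with its SE and a two-sided p-value. Adjustment was by Benjamini-Hochberg over all genes, with a threshold of 0.05, and the fit was tested on simulated data. GENCODE vM21 gave coordinates and, for 98.1% of tested genes, a length and GC content, each the median over a gene's annotated transcripts. Relative depth came from 97 genes with clear steps between low values (86.5% of 1125 values within 0.15 of a whole step). Up to 12 genes a direction were named: first those past the threshold, then, as none passed, those of smallest p without overlap, a higher mean of at least 2 and no clone name. The 2 members of smallest p of each list were added, and further genes were picked with their values in view. A few genes are counted but not reported by name. The comparison and the lists were chosen with earlier results of these data known. Other pseudocounts, filters, scalings, weights, a replicate block, a length and GC adjustment and leaving out libraries were the alternatives. Plots used matplotlib 3.10.9 (Python 3.11.15).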

Additional observations from a re-analysis of the deposited data

How the results depend on the processing

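Absolute depth is unknown, and 3 libraries a group limit what can be called. The 0 calls between HFD-conFMT and HFD were 2 with a pseudocount of 5, 3 with no filter on low values, 1 (Retsat) with only the 6 libraries of the 2 groups, 9 with array weights, 1 without both control 3 and HFD-conFMT 2, and 1 with the length and GC adjustment and the replicate block together. Leaving out 1 library gave 0 to 17, with 17 without HFD-AOS 1, 1 (Capg) without HFD 2 and 1 without AOS 3. The 274 calls between HFD-conFMT and control were 166 with no filter, 925 with array weights, 4 without both control 3 and HFD-conFMT 2, 79 with the length and GC adjustment and 66 with that adjustment and the block. Leaving out 1 library gave 6 to 592, with 82, 6 and 14 without HFD-conFMT 1, 2 and 3, 123, 19 and 16 without control 1, 2 and 3, 163 and 135 without AOS 1 and AOS 3, 592 without HFD-AOS 1, and 175, 136 and 146 without HFD-AOSFMT 1, 2 and 3. Quantile normalization turned their split to 71 higher and 133 lower, against 163 and 111. The 1 call between HFD-AOSFMT and HFD-conFMT was 16 with no filter and stayed at 1 to 1 when 1 library was left out. The cause of these shifts was not tested. Replicate numbers do not pair these samples (correlations of same-numbered HFD-conFMT and HFD libraries of -0.102, -0.051 and 0.019), and with the replicate block the 3 counts were 0, 185 and 1. Among single genes, those named by the rule and the 2 members of smallest p of each list were followed. None of their fold changes reversed under these settings, and 24 gene values passed the threshold under one of them. Further genes picked with their values in view were not followed. Of the list medians, 32 moved by more than the SD between replicates of the list's mean log2 deviation, and 838 did not.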
